A study of Homo sapiens with 6 samples.

Results

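The genes described here are 28 genes of cholesterol and fatty acid synthesis that are controlled by, or control, the sterol regulatory element-binding proteins (SREBPs). They were chosen by symbol, without use of their values, from the 60612 Ensembl identifiers of the count table. All were found, and 27 of them passed the filter on low counts that left 17224 genes for testing. RNA was sequenced from U937 cells, an established human myeloid line labelled acute myeloid leukemia and wild type (WT). The B2 group (3 libraries) was given B2, a compound known from the labels by that code alone, at 1 µM for 36 h, and the DMSO group (3 libraries) was given the vehicle for the same time. All cells had been grown with 10% fetal bovine serum and penicillin/streptomycin and were then held in RPMI-1640 without serum, so no library with serum stands beside these 6. All libraries come from the same line, and the labels do not say that replicates were separate cultures, so p-values measure only how much these 6 libraries vary, and that variation may be technical.

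Cholesterol is built from acetyl-CoA through mevalonate, squalene and lanosterol. The SREBP transcription factors are held in the endoplasmic reticulum membrane by SCAP and INSIG proteins while sterols are plentiful, and are carried to the Golgi, cut and released to the nucleus when sterols run low. SREBP2, encoded by SREBF2, is known mainly for cholesterol genes and SREBP1, encoded by SREBF1, mainly for fatty acid genes. Serum lipoproteins are the usual outside supply of cholesterol for cultured cells.

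SREBPs act at target promoters together with the factors NF-Y, which binds CCAAT boxes, and Sp1, which binds GC-rich boxes. RefSeq promoter windows (GRCh38.p14, 250 bases before to 50 after each start) were matched for 24 of the 28 genes. CCAAT, searched on both strands, lay in the windows of 18 of the 24 (75.0%), beside 39.7% of the 27305 gene symbols in the same table. GGGCGG lay in 22 of the 24 (91.7%, beside 48.3%) and the E-box CACGTG in 4 (16.7%, beside 8.77%). The sterol regulatory element TCACNCCAC was found in 1 window, that of SREBF2 (4.17%, beside 1.39%). These are matches of letters, not measured binding, and the 27305 symbols were not matched to the 24 in gene type or base composition. The 250 bases before the start are shown, 5′ to 3′, for the pair of genes that differed between libraries in the tests below (HMGCS1 and INSIG1), for IDI1 and for SREBF2. IDI1 was the 1 gene of the 27 tested whose B2 and DMSO libraries did not overlap, a share close to the 3.56% of all genes. Capitals mark CCAAT on either strand and TCACNCCAC. HMGCS1 has 2 starts in the table and IDI1 has 3, and the window with most CCAAT matches that held no other start was taken.
HMGCS1, chr5:43313413-43313662 (- strand): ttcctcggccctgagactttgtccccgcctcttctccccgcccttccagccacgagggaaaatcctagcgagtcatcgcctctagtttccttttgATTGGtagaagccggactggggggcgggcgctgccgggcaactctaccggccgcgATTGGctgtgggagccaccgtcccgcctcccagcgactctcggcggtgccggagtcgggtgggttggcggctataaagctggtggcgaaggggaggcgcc
INSIG1, chr7:155297628-155297877 (+ strand): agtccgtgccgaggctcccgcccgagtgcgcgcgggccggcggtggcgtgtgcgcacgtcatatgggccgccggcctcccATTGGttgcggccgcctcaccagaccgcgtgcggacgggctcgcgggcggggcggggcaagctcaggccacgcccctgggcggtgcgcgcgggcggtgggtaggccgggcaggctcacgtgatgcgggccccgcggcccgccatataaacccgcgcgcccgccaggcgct
IDI1, chr10:1049120-1049369 (- strand): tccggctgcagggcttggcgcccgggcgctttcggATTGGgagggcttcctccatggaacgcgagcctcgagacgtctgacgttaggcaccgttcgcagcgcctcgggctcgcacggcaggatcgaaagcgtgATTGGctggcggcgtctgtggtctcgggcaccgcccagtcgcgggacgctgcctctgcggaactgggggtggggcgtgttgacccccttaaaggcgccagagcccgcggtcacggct
SREBF2, chr22:41832855-41833104 (+ strand): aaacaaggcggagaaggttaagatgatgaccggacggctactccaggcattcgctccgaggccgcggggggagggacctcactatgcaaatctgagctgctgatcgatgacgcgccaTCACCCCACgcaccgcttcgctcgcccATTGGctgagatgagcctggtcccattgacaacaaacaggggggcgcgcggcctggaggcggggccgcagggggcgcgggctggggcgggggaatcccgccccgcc
HMGCS1 and IDI1 each carried 2 CCAAT matches in the bases shown, and INSIG1 and SREBF2 carried 1 each. In SREBF2 the sterol element lay just before the CCAAT match.

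Library totals ran from 61150740 to 78431054 counts, and mitochondrially encoded genes took 6.44% to 10.3% of them. Levels are given in CPM, counts brought to a common library total after scaling with trimmed mean of M-values (TMM) factors. Of 12 myeloid markers, 11 stood above 1 CPM in all 6 libraries, and their sum was 4559 to 9565 CPM with B2 and 4236 to 10135 CPM with DMSO. The libraries numbered 3 stood apart. The sum of 10 macrophage markers was 1006 and 1065 CPM in them (B2 and DMSO), while the remaining libraries held 16.8 to 36.5 CPM. Of the 10, 3 had 0 counts in at least 1 library (C1QB, MSR1 and MRC1, the last in all 6 libraries). Of 5 T cell markers 4 had 0 counts in at least 1 library, and their sum was at most 3.38 CPM with B2 and 4.66 CPM with DMSO. The sum of 6 epithelial markers was 28 to 34.5 CPM in the B2 replicates, against 2.88, 10.3 and 24.7 CPM in DMSO replicates 1, 2 and 3; 1 of the 6 had 0 counts in at least 1 library. Fewer cells of a type and less RNA per cell cannot be told apart in such bulk samples.

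The pathway was expressed along nearly its whole length. Levels compared between genes are CPM per kilobase of exon, averaged over the 6 libraries, and they ran from 3.52 for TM7SF2 to 753 for SCD among the 27 genes tested, with a median of 49.7. SCD, the stearoyl-CoA desaturase, had 5041, 5416 and 2071 CPM in B2 replicates 1, 2 and 3, against 4013, 5001 and 2672 CPM in DMSO replicates 1, 2 and 3. It alone made up 22.5% to 33.1% of the CPM that the 27 genes held together in a library. The next levels per kilobase were those of FDFT1 (squalene synthase, 261), FDPS (farnesyl diphosphate synthase, 251) and INSIG1 (the sterol-induced retention protein, 225).

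The lowest levels lay in the second part of the sterol pathway and in sterol transport. TM7SF2 and LBR both encode sterol C14 reductases, LBR being also the lamin B receptor of the inner nuclear membrane, and LBR stood at 34.0 CPM per kilobase, TM7SF2 at 3.52. The desaturase gene SC5D stood at 4.14 and the cytosolic sterol carrier gene STARD4 at 3.94 CPM per kilobase. HSD17B7, which encodes the ketoreductase of sterol demethylation, was the gene that did not pass the filter. It had 8, 7 and 5 counts in B2 replicates 1, 2 and 3, against 0, 7 and 19 counts in DMSO replicates 1, 2 and 3, where 3 counts correspond to 0.0386 to 0.0537 CPM, a floor that covers counting error only. Its near-identical pseudogene could have taken or given reads. Some values are uncertain for another reason: 79.3% of the exon bases of CYP51A1 (lanosterol demethylase) overlap other genes on the same strand, and 52.3% of those of ACAT2 (acetyl-CoA acetyltransferase) overlap genes on the other strand, including SOD2. For FDPS (18.6%), HMGCS1 (14.9%) and IDI1 (14.8%) a smaller part overlaps genes on the other strand. The strand setting of the counting is not given in the sources used here.

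**Figure D1:**
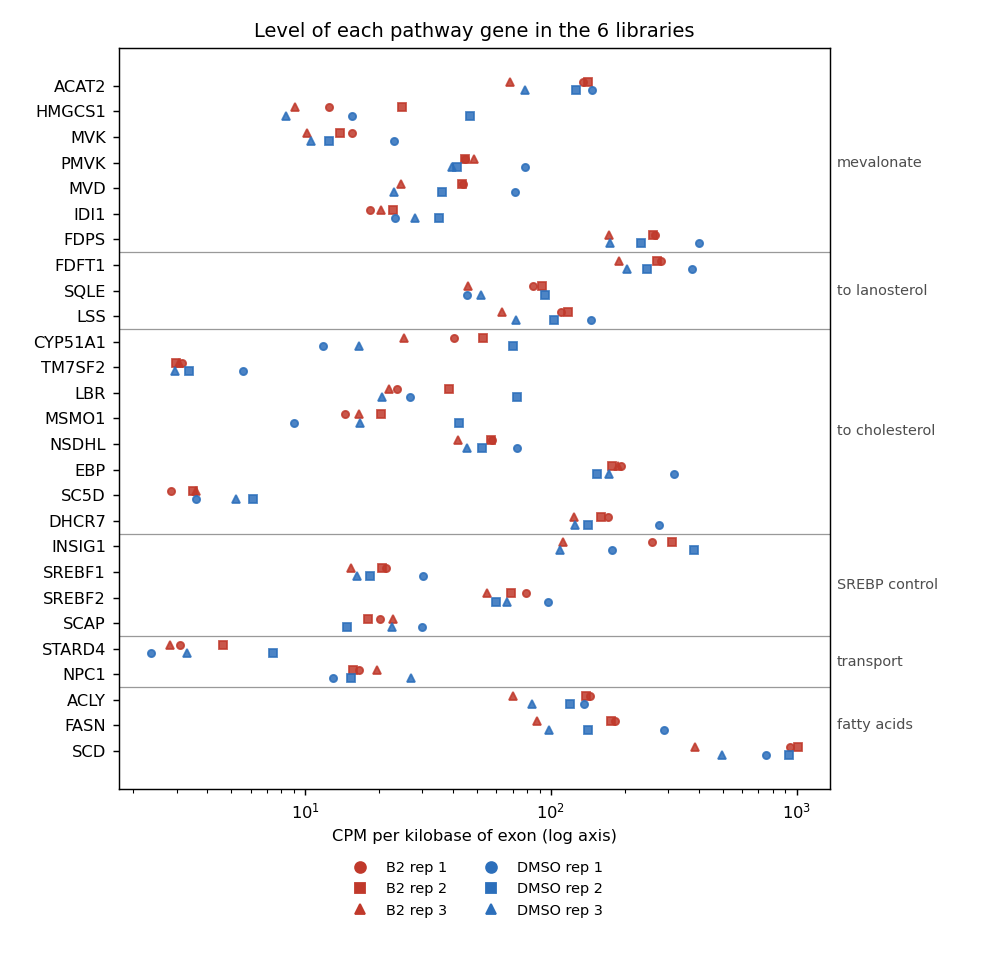
CPM per kilobase of exon on a log axis for the 27 tested genes in pathway order, with 1 point per library (red B2, blue DMSO; circle, square and triangle for replicates 1, 2 and 3). SCD lies highest and TM7SF2, SC5D and STARD4 lie lowest, and the triangles of replicate 3 often form the left edge of a gene's points.

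In B2-treated cells no gene of the pathway was called different. Of the 27 genes, 0 passed the edgeR quasi-likelihood test at an adjusted p below 0.05, where 0 of 17224 genes did (0%), and each of the 27 had an adjusted p of 1.0. At an unadjusted p below 0.05 the 27 genes counted 0 as well, beside 85 of all genes (0.493%), and DESeq2 and limma-voom on the same genes called 0 of the 27. The smallest unadjusted p was 0.0852, for SC5D. The log2 fold change of B2 over DMSO was negative for 22 of the 27 (-0.20 at the median), where 62.1% of all genes were negative (median -0.08). Those signs rested on DMSO replicate 1: without it 10 of the 27 were negative and the median was 0.13. In the fit of all 6 libraries, which leaves the pairing by number aside, the median SE was 0.36 on the log2 scale, and for 11 of the 27 both ends of the 95% interval were closer to 0 than a 2-fold change. With the replicate number as a block the median SE was 0.26, 25 of the 27 met that limit (all but CYP51A1 and SC5D), and 0 had an unadjusted p below 0.05, beside 228 of all genes (1.32%). The block placed CYP51A1 at 0.65 (SE 0.36) and HMGCS1 at -0.37 (SE 0.27). Epithelial marker sums were lowest in DMSO replicates 1 and 2, as given above, and their part in these values was not tested.

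Among the mevalonate genes, IDI1 was the 1 gene of the 27 whose groups did not overlap, a share close to that over all genes (614, or 3.56%). Of all genes, 280 (1.63%) had B2 below. IDI1 encodes isopentenyl diphosphate isomerase and had 79.8, 99.3 and 88.2 CPM in B2 replicates 1, 2 and 3, against 101, 152 and 122 CPM in DMSO replicates 1, 2 and 3. Every B2 library lay below every DMSO library, the closest being B2 replicate 2 and DMSO replicate 1 (log2 fold change -0.49, SE 0.26; -0.34, -0.61 and -0.47 in pairs 1, 2 and 3). HMGCS1, which encodes the cytosolic HMG-CoA synthase, had 58.7, 117 and 42.7 CPM in B2 replicates 1, 2 and 3, against 73.0, 221 and 39.2 CPM in DMSO replicates 1, 2 and 3. DMSO replicate 2 stood far above the rest and the groups overlapped (log2 fold change -0.61, SE 0.63). The other mevalonate genes, ACAT2, MVK and PMVK (the kinases), MVD (the decarboxylase) and FDPS, had log2 fold changes from -0.22 to -0.03. FDPS had 985, 967 and 643 CPM in B2 replicates 1, 2 and 3, against 1493, 863 and 648 CPM in DMSO replicates 1, 2 and 3. MVD had 207, 205 and 116 CPM in B2 replicates 1, 2 and 3, against 336, 171 and 109 CPM in DMSO replicates 1, 2 and 3. In both genes DMSO replicate 1 was the highest library and both libraries numbered 3 were the lowest. PMVK had 57.5, 57.4 and 62.5 CPM in B2 replicates 1, 2 and 3, against 100.3, 53.4 and 50.7 CPM in DMSO replicates 1, 2 and 3. DMSO replicate 1 stood above the other 5 libraries there, which lay close together.

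From squalene to cholesterol the picture was alike. SQLE, the squalene epoxidase, had 363, 395 and 197 CPM in B2 replicates 1, 2 and 3, against 196, 408 and 224 CPM in DMSO replicates 1, 2 and 3. DMSO replicate 1 shared its low level with both libraries numbered 3 (log2 fold change 0.20, SE 0.39). FDFT1 and LSS, the lanosterol synthase, lay at -0.16 (SE 0.32) and -0.15 (SE 0.36). SC5D had 15.8, 19.4 and 20.0 CPM in B2 replicates 1, 2 and 3, against 19.9, 34.0 and 29.2 CPM in DMSO replicates 1, 2 and 3. Its B2 libraries lay lower than DMSO replicates 2 and 3, but B2 replicate 3 slightly exceeded DMSO replicate 1 (log2 fold change -0.59, SE 0.30; -0.34, -0.81 and -0.55 in pairs 1, 2 and 3). IDI1 and SC5D were the 2 genes of the 27 that were lower with B2 in all 3 pairs of like-numbered libraries, beside 1570 of all genes (9.12%), while 0 were higher in all 3. Of the remaining cholesterol genes, CYP51A1 lay at 0.26 (SE 0.64), LBR at -0.51 (SE 0.49), TM7SF2 at -0.37 (SE 0.33) and the sterol methyl oxidase gene MSMO1 at -0.40 (SE 0.51). NSDHL (a demethylation enzyme), EBP (the sterol isomerase) and DHCR7 (a final reductase) lay between -0.26 and -0.13. EBP had 464, 428 and 454 CPM in B2 replicates 1, 2 and 3, against 761, 372 and 414 CPM in DMSO replicates 1, 2 and 3. Again DMSO replicate 1 alone stood above the rest.

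The regulators, sterol carriers and fatty acid genes had log2 fold changes from -0.31 to 0.10. SREBF1 had 172, 165 and 124 CPM in B2 replicates 1, 2 and 3, against 242, 148 and 131 CPM in DMSO replicates 1, 2 and 3. SREBF2 had 596, 519 and 415 CPM in B2 replicates 1, 2 and 3, against 733, 450.4 and 501 CPM in DMSO replicates 1, 2 and 3. In both genes DMSO replicate 1 was the highest library, and the B2 values fell inside the DMSO range except for the lowest, B2 replicate 3 (log2 fold changes -0.18 with an SE of 0.31 and -0.14 with an SE of 0.29). SCAP, the escort protein, lay at -0.15 (SE 0.31) and INSIG1 at 0.03 (SE 0.53). STARD4 lay at -0.31 and NPC1, which exports cholesterol from lysosomes, at -0.09. In the fatty acid branch, ACLY (ATP citrate lyase, the source of cytosolic acetyl-CoA) lay at 0.05, FASN (fatty acid synthase) at -0.25 and SCD at 0.10, with SEs of 0.35, 0.46 and 0.42.

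**Figure D2:**
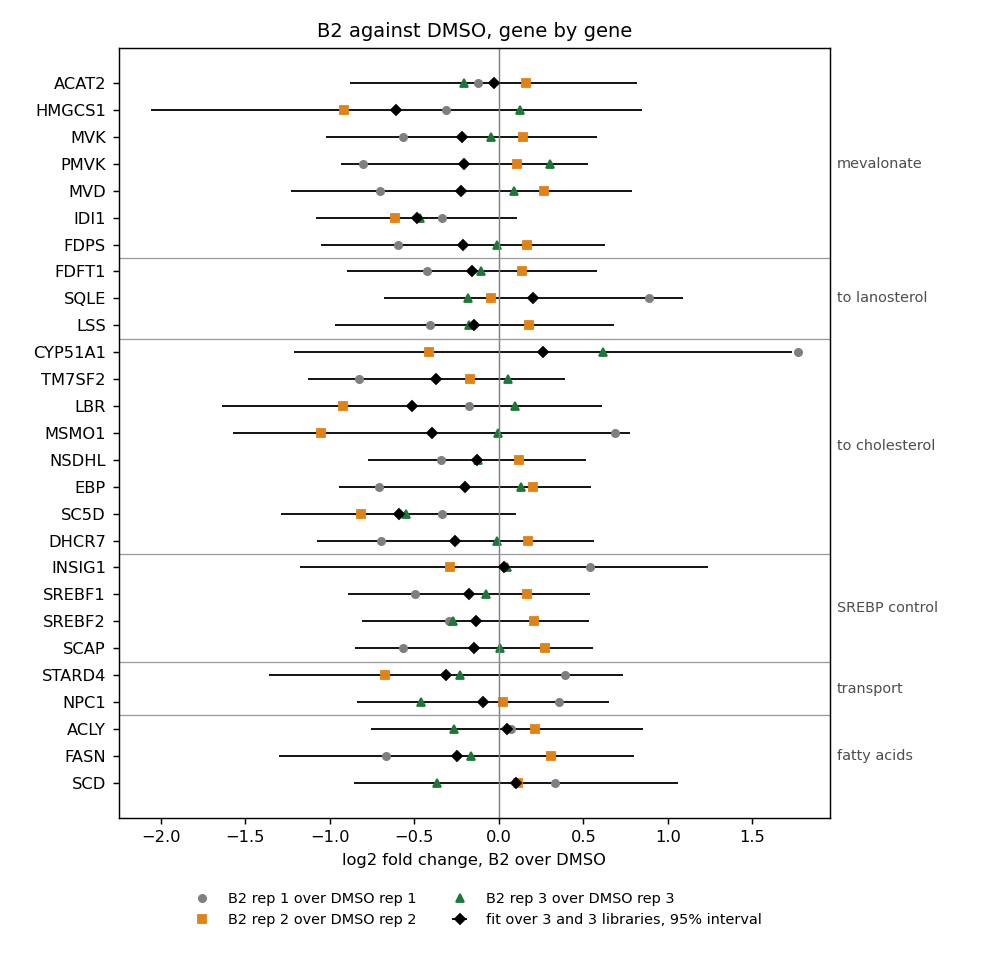
Log2 fold change of B2 over DMSO for the 27 tested genes in pathway order, with the fitted value and its 95% interval (black, 3 libraries per group) and the ratio within each like-numbered pair (grey circle, orange square and green triangle for pairs 1, 2 and 3). Every interval spans 0, and the pairs point in different directions for 25 of the 27 genes.

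The 3 pairs did not move together. In pair 1, 19 of the 27 genes were lower with B2 (median log2 ratio -0.34). In pair 2, 10 were lower and 17 higher (median 0.12), and in pair 3, 18 were lower (median -0.08). CYP51A1, the gene farthest from 0 in pair 1, was at 1.77 there and at -0.41 in pair 2. MSMO1, the gene farthest from 0 in pair 2, was at -1.05 there and at 0.69 in pair 1.

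Larger differences lay between replicate numbers, and most genes of the pathway had low values in both libraries numbered 3. The contrast of number 3 with the mean of numbers 1 and 2 was tested in edgeR with treatment as a further term, and was chosen because number 3 was already known to stand apart. Its log2 difference was negative for 24 of the 27 genes, where 53.3% of all genes were negative, with a median of -0.56 beside -0.05 over all genes. Both libraries numbered 3 lay below the other 4 in 15 of the 27 genes, beside 2088 of all genes (12.1%), and 16 lay outside the range of the other 4 in either direction, beside 24.4%. B2 replicate 3 was the lowest library in 12 of the 27, beside 16.5% of all genes. HMGCS1 and INSIG1 fell past the threshold, which 575 of all genes passed (3.34%), 74 of them downwards (0.43%) and 501 upwards (2.91%). The same 2 of the 27 passed a test for any difference among the 3 numbers, beside 461 of all genes (2.68%). At an unadjusted p below 0.05 there were 14 of the 27 genes, beside 14.6% of all genes. The same direction was found within each treatment: 22 genes were lower in number 3 both within B2 (median -0.46) and within DMSO (median -0.58). Together the 27 genes held 8864 CPM in number 3 of B2 and 9961 CPM in number 3 of DMSO, against 15841 and 16379.5 CPM in B2 replicates 1 and 2 and 17800.4 and 15624 CPM in DMSO replicates 1 and 2. Macrophage marker sums were high in the same 2 libraries. Of the 10 macrophage markers 7 were tested, and all 7 rose there in edgeR at an adjusted p below 0.05. Of the untested markers, MRC1 had 0 counts in all 6 libraries and MSR1 had 0 in both libraries numbered 3. C1QB had 4 and 7 counts there (B2 and DMSO). The part of the macrophage markers in the lower level of the pathway was not tested.

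INSIG1 gave the smallest adjusted p of the 27. It had 410.1 CPM in number 3 of B2 and 397 CPM in number 3 of DMSO, against 941 and 1138 CPM in B2 replicates 1 and 2 and 646 and 1392 CPM in DMSO replicates 1 and 2. Both libraries numbered 3 stood below all others (log2 difference -1.31, SE 0.28, adjusted p = 0.0250; -1.33 within the B2 libraries and -1.26 within the DMSO libraries). HMGCS1, which makes the HMG-CoA that mevalonate comes from, had 42.7 CPM in number 3 of B2 and 39.2 CPM in number 3 of DMSO, against 58.7 and 117 CPM in B2 replicates 1 and 2 and 73.0 and 221 CPM in DMSO replicates 1 and 2. Here too both libraries numbered 3 were the lowest, though the other 4 spread widely (log2 difference -1.32, SE 0.30, adjusted p = 0.0349; -0.96 within the B2 libraries and -1.70 within the DMSO libraries). With only 1 library numbered 3 in the fit both calls were lost: the adjusted p of INSIG1 was 0.644 without B2 replicate 3 and 0.609 without DMSO replicate 3, and that of HMGCS1 was 0.311 and 1.0. They were also lost without DMSO replicate 2 (0.111 for INSIG1 and 0.0823 for HMGCS1), and that of HMGCS1 without DMSO replicate 1 (0.0658). Both kept the negative sign in each of these fits. Without B2 replicate 1 or DMSO replicate 1, number 1 rested on 1 library. INSIG1 then lay at -1.14 and -1.41 and HMGCS1 at -1.31 and -1.28, in that order of fits. The median of the 27 was -0.64 and -0.39, beside 0.02 and -0.01 over all genes.

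Several abundant genes showed the same order of libraries without passing. SCD had 2071 CPM in number 3 of B2 and 2672 CPM in number 3 of DMSO, against 5041 and 5416 CPM in B2 replicates 1 and 2 and 4013 and 5001 CPM in DMSO replicates 1 and 2 (log2 difference -1.03, SE 0.27, adjusted p = 0.0634). FASN had 825 CPM in number 3 of B2 and 924 CPM in number 3 of DMSO, against 1709 and 1644 CPM in B2 replicates 1 and 2 and 2715 and 1329 CPM in DMSO replicates 1 and 2 (log2 difference -1.05, SE 0.28, adjusted p = 0.0754). ACLY completed the fatty acid branch with 365 CPM in number 3 of B2 and 439 CPM in number 3 of DMSO, against 751 and 723 CPM in B2 replicates 1 and 2 and 713 and 624 CPM in DMSO replicates 1 and 2 (log2 difference -0.80, SE 0.26, adjusted p = 0.148). In all 3 genes both libraries numbered 3 lay below the other 4. ACAT2 (log2 difference -0.91, SE 0.26, adjusted p = 0.0933) and MVD (log2 difference -1.0, SE 0.29, adjusted p = 0.0998) showed this order too, as did LSS at -0.81, FDPS at -0.72 and LBR at -0.78. DESeq2 called 7 of the 27 genes lower in number 3, beside 1006 of all genes in either direction. With limma-voom there were 6, beside 786 of all genes, where edgeR called 575. ACAT2, MVD, SCD and FASN were among the genes called by DESeq2 and by limma-voom.

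INSIG1 was the only regulator called in this contrast. SREBF1 lay at -0.50 (SE 0.27) and SREBF2 at -0.31 (SE 0.26), neither past the threshold. SCAP, SC5D and NPC1 were the 3 genes with a positive difference. NPC1 had 198 CPM in number 3 of B2 and 273 CPM in number 3 of DMSO, against 168 and 158 CPM in B2 replicates 1 and 2 and 132 and 155 CPM in DMSO replicates 1 and 2. It was the one gene of the 27 with both libraries numbered 3 above the other 4 (log2 difference 0.62, SE 0.26, adjusted p = 0.291). IDI1 hardly differed, at -0.02 (SE 0.25).

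**Figure D3:**
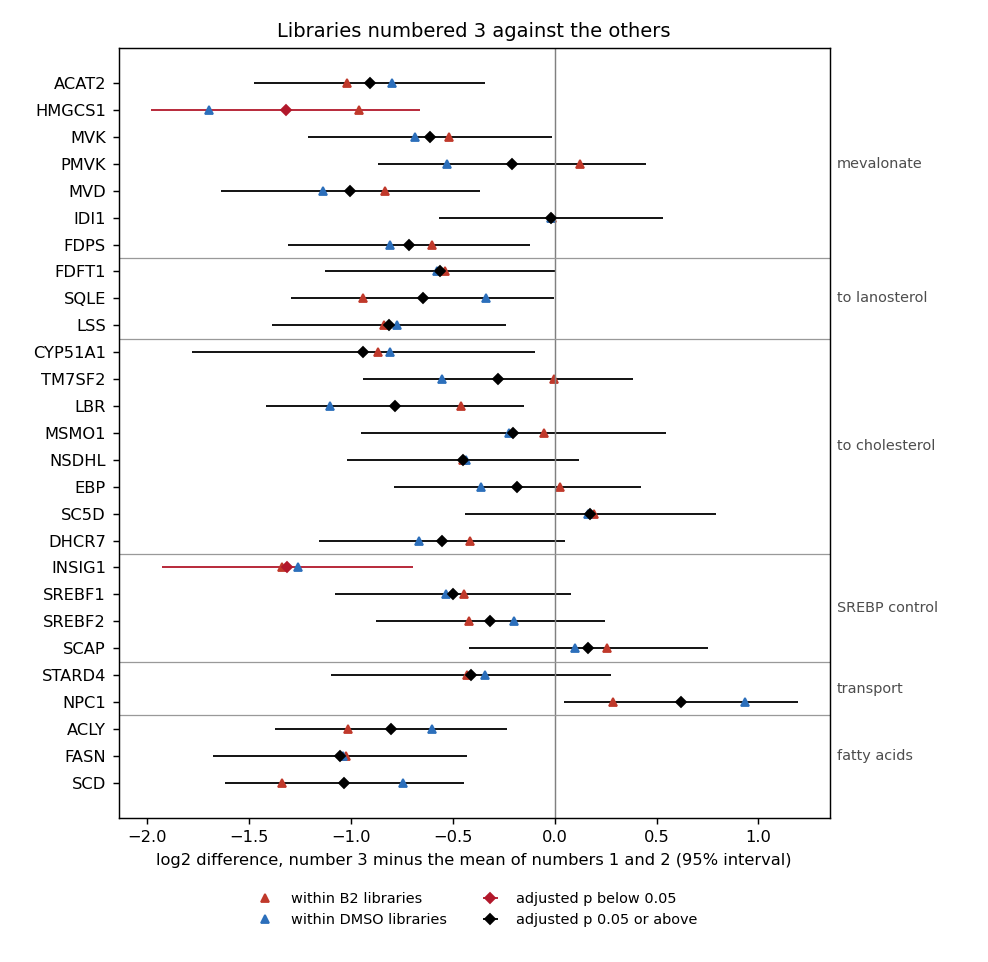
Log2 difference between the libraries numbered 3 and the mean of numbers 1 and 2 for the 27 tested genes, with the fitted value and 95% interval (diamonds; dark red where the edgeR adjusted p is below 0.05) and the same difference within B2 (red triangles) and within DMSO (blue triangles). HMGCS1 and INSIG1 are the 2 genes called, at -1.32 and -1.31, and 24 of the 27 diamonds lie left of 0.

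Genes of the pathway divided between DMSO replicates 1 and 2 along their base composition. Of the 27 genes, 15 were highest in DMSO replicate 1 and 9 in DMSO replicate 2, beside 24.9% and 32.8% of all genes. The GC content of the longest transcript ran from 48.6% to 65.3% in the genes highest in DMSO replicate 1, and from 34.2% to 46.5% in those highest in DMSO replicate 2, so the ranges did not overlap. Across the 27 genes, the deviation from the gene's mean correlated with GC content at a Spearman rho of 0.86 in DMSO replicate 1 and -0.79 in DMSO replicate 2. Over 17015 genes with a sequence the rho was 0.48 and -0.55, so the trend was not limited to the pathway. The B2 libraries had it in the same directions, at 0.28 in replicate 1 and -0.43 in replicate 2 over the 27 genes. The points are genes of the same libraries and are not independent, so these values are a description.

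CYP51A1 showed the widest spread. It had 253 CPM in DMSO replicate 2 and 42.4 CPM in DMSO replicate 1, with 189.9 and 144 CPM in B2 replicates 2 and 1. MSMO1 had 122 and 26.1 CPM in DMSO replicates 2 and 1, and 58.8 and 42.0 CPM in B2 replicates 2 and 1. LBR had 382 and 141 CPM in DMSO replicates 2 and 1, and 202 and 125 CPM in B2 replicates 2 and 1. CYP51A1 and MSMO1 are AT-rich among these genes (41.5% and 38.1% GC), as is LBR (37.8%), and all 3 were high in number 2. STARD4, with the lowest GC content of the 27 (34.2%), had 42.2 and 13.4 CPM in DMSO replicates 2 and 1, and 26.4 and 17.5 CPM in B2 replicates 2 and 1. GC-rich genes showed the opposite order: FASN, at 65.3% GC, had 1329 and 2715 CPM in DMSO replicates 2 and 1. DHCR7, at 58.3% GC, had 588 and 1152 CPM. In the contrast of number 2 with number 1, 0 of the 27 genes passed, beside 9 of all genes (0.0523%; 0.029% higher and 0.0232% lower), and 6 of the 27 had an unadjusted p below 0.05, beside 18.2%. The difference was negative for 16 of the 27, where 43.8% of all genes were negative. DESeq2 called 3 genes higher in number 2 (HMGCS1, CYP51A1 and MSMO1), beside 619 of all genes in either direction. With limma-voom 1 was called (HMGCS1), beside 263 of all genes. Without B2 replicate 1, number 1 rested on DMSO replicate 1 alone, and the median of the 27 was -0.56, beside 0.17 over all genes. Without B2 replicate 2, number 2 rested on DMSO replicate 2 alone, and the median was -0.55, beside 0.07 over all genes.

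The trend of each library with GC content and exon length was then removed. In the contrast of numbers 2 and 1 this brought 21 of the 27 genes nearer to 0, moved 6 farther from it and changed the sign of 5. In number 2 against number 1, HMGCS1 moved to 0.49 with the trend removed, from a fitted 1.32, and CYP51A1 to 0.74, from 1.48. FDFT1 moved the other way, to -0.75, from -0.34, and NPC1 to -0.46, from 0.06. The median of the 27 was -0.23 with the trend removed and -0.20 without that step. Over all genes the median was -0.11 with the trend removed and 0.16 without that step. In number 3, HMGCS1 (-1.30, adjusted p = 0.00977) and INSIG1 (-1.22, adjusted p = 0.0184) stayed past the threshold in edgeR. MVD joined them (-1.17, adjusted p = 0.0172), and 23 of the 27 genes were negative. Between B2 and DMSO 0 of the 27 passed in edgeR with the trend removed and the replicate number as a block. In that fit 3 of the 27 had an unadjusted p below 0.05, beside 419 of all genes.

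**Figure D4:**
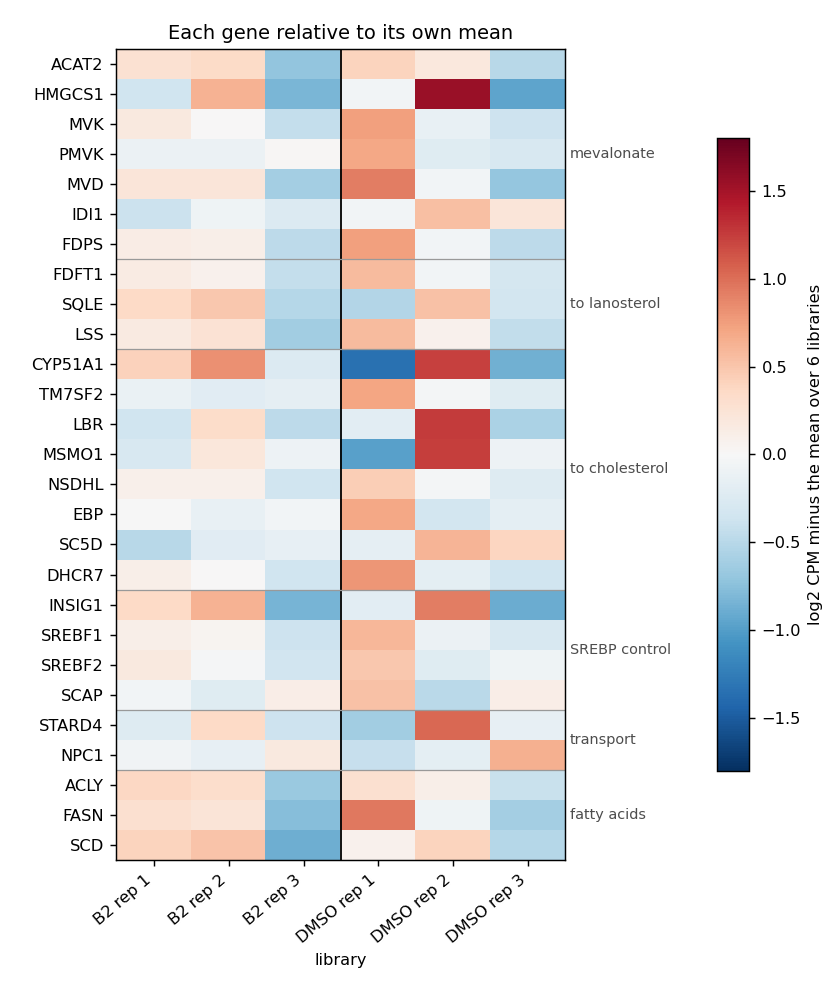
Log2 CPM of each of the 27 tested genes minus its own mean over the 6 libraries (red above, blue below the mean), with B2 libraries left of the line and DMSO libraries right of it. Both columns of replicate 3 are mostly blue, and DMSO replicates 1 and 2 show opposite patterns down the pathway.

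**Figure D5:**
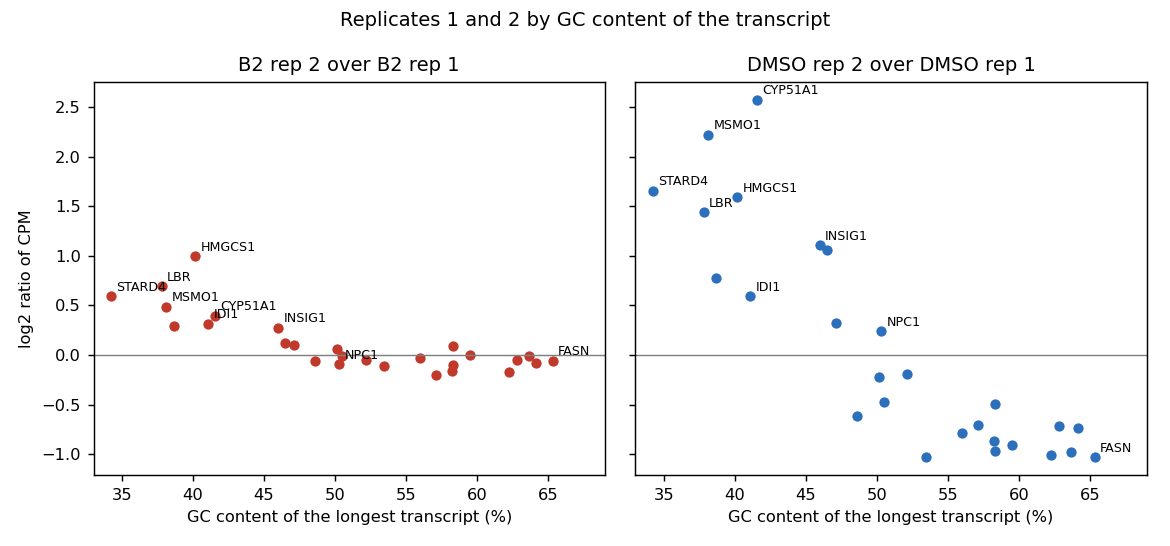
Log2 ratio of CPM in replicate 2 over replicate 1 against GC content of the longest transcript in percent, for the 27 tested genes within B2 (left) and within DMSO (right). Of the 7 genes under 43% GC, 7 lie above 0 within DMSO, and of the 16 genes over 50% GC, 15 lie below 0, NPC1 being the exception.

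Other genes of lipid metabolism were followed through 4 lists chosen beside the pathway. None of the members tested passed in edgeR between B2 and DMSO or between number 3 and the rest. The filter asked for counts in at least 3 libraries, so a gene seen mainly in the libraries numbered 3 (ABCA1, below) was left untested. At an unadjusted p below 0.05 there were 0 between B2 and DMSO, and in number 3 there were 4 of 17 fatty acid, 3 of 18 sterol handling, 2 of 11 isoprenoid and 2 of 6 LXR genes, beside 14.6% of all genes. The fatty acid list (17 of 18 tested) had 7 positive and 10 negative values between B2 and DMSO (median -0.05) and 8 and 9 in number 3 (median -0.23). FADS1, a fatty acid desaturase, had 309 CPM in number 3 of B2 and 362 CPM in number 3 of DMSO, against 707 and 756 CPM in B2 replicates 1 and 2 and 399 and 731 CPM in DMSO replicates 1 and 2 (log2 difference -0.91, SE 0.29). ACSL1, an acyl-CoA synthetase, had 187 CPM in number 3 of B2 and 168 CPM in number 3 of DMSO, against 97.2 and 124 CPM in B2 replicates 1 and 2 and 40.1 and 146 CPM in DMSO replicates 1 and 2 (log2 difference 0.91). These 2 genes thus lay on opposite sides, FADS1 with the pathway described above.

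The list of sterol handling and SREBP regulation (18 of 18 tested) had 5 positive and 13 negative values between B2 and DMSO (median -0.11), and 9 of each in number 3 (median 0.01). TMEM97, a sterol-regulated membrane protein that binds NPC1, had 55.9 CPM in number 3 of B2 and 53.2 CPM in number 3 of DMSO, against 119.9 and 145 CPM in B2 replicates 1 and 2 and 58.9 and 172 CPM in DMSO replicates 1 and 2. Its libraries numbered 3 were the lowest (log2 difference -1.11, SE 0.32, adjusted p = 0.0934). LPIN1, a phosphatidate phosphatase, lay at -0.85 and SOAT1, which esterifies cholesterol, at 0.84 in the same contrast. The isoprenoid branch (11 of 12 tested) had 1 positive and 10 negative values between B2 and DMSO (median -0.16), with GGPS1, the geranylgeranyl diphosphate synthase, at -0.43 (SE 0.33). In number 3 it had 4 positive and 7 negative values (median -0.21).

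The list of LXR targets and cholesterol export (6 of 9 tested) had 5 positive values and 1 negative in number 3 (median 0.45), where 46.7% of all genes were positive, and 3 of each sign between B2 and DMSO. NCEH1, a cholesteryl ester hydrolase, had 41.7 CPM in number 3 of B2 and 38.9 CPM in number 3 of DMSO, against 20.5 and 24.5 CPM in B2 replicates 1 and 2 and 7.24 and 34.0 CPM in DMSO replicates 1 and 2 (log2 difference 1.03, SE 0.37, adjusted p = 0.196). NR1H2, which encodes LXR beta, lay at 0.91 (SE 0.28), and ABCG1, a cholesterol exporter, at 0.62 with an SE of 0.94. ABCG1 held only 0.0813 to 0.297 CPM over the 6 libraries, close to the count floor given above. The receptor gene NR1H3 lay at 0.25 (SE 0.29) and LPCAT3 at -0.09 (SE 0.27), so the list mixes receptors with targets. The exporter ABCA1 did not pass the filter on low counts and was named after its values were seen. It had 2.67 and 2.22 CPM in the number 3 libraries of B2 and DMSO, where numbers 1 and 2 held 0.0813 and 0.110 CPM in B2 cells, and 0.107 and 0.103 CPM in DMSO cells. CH25H and APOC1, also named after their values were seen, did not pass the filter either. CH25H had 0 counts in all 6 libraries. APOC1 had 0.0495 CPM in number 3 of B2 and 0.0515 CPM in number 3 of DMSO, and 0 to 0.142 CPM in numbers 1 and 2.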

How the data were processed

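The values are expected counts per gene, whole numbers that the authors deposited without normalization. HISAT2 2.0.4 is named in the submitters' processing notes. How reads were counted, on which build and with which strand setting, is not given in the sources used here. A value of 4 occurred 6465 times, against 3144 for 3 and 2022 for 5, so small counts are less exact than their size implies. Symbols came from a gene name table (60401 identifiers) and GENCODE 29 (187 more), which also gave exon lengths and, for its longest transcript, GC content. Genes were kept with edgeR's filterByExpr (minimum count 10, minimum total 15) and scaled with TMM factors (0.86 to 1.07). The tests were edgeR 4.0.16 glmQLFit and glmQLFTest under R 4.3.3, with treatment as the only term for B2 against DMSO and with treatment and replicate number for the contrasts of numbers, Benjamini-Hochberg adjustment over 17224 genes and a threshold of 0.05. SEs were taken from the coefficient and its F statistic. Trends with GC content and log2 length were removed with a loess surface (span 0.5). Alternatives used DESeq2 1.42.0, limma 3.58.1 (limma-voom), other scalings, filters and left-out libraries. The scripts were tested on simulated data. Subtracting each group's mean left residues that correlated between B2 and DMSO at 0.21, 0.40 and 0.50 for numbers 1, 2 and 3, each above 0.1, so the numbers were taken as a pairing. That rests on the data alone: no label explains the number. B2 against DMSO was nevertheless fitted without the pairing, and the fit with the number as a block was an alternative. The pathway genes were chosen by symbol, without use of their values. Earlier results of these data were known when the genes, lists, contrasts and alternatives were chosen. The 28 genes are all named; of each other list, up to 3 genes with the smallest p and up to 3 with the largest difference of number 3 could be named. Several other genes of the pathway were not analysed here.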

Additional observations from a re-analysis of the deposited data

How the results depend on the processing

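Between B2 and DMSO 0 of the 27 genes tested passed under any of the 18 alternatives, the replicate block included, which changed no call. TM7SF2, IDI1 and SC5D kept a negative sign in all 18. The other 24 changed sign in at least 1, 4 of them with all libraries in the fit, 16 without DMSO replicate 1 and 16 without both libraries numbered 1 (with the replicate block, where 14 of the 27 were negative). Over all genes the count moved from 0 to 1 with DESeq2, 0 to 1 without 1 library, 2 without number 2 and 48 without number 3 (both with the replicate block), none of them among the 27.

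In number 3, 22 of the 27 kept their sign in all 15 alternatives. Against 2 calls among them there were 0 with no filter on low counts, where the adjusted p was 0.0548 for HMGCS1 and 0.0662 for INSIG1. There were 5 with a minimum count of 50, 5 with counts divided by 4, 5 with number as the only term, 6 with limma-voom, 7 with DESeq2 and 0 to 10 without 1 library. With library totals HMGCS1 missed (0.0632) and FASN passed. In number 2 against 1 the 0 calls became 1 with limma-voom (beside 263 of all genes). They became 3 with DESeq2 (619), a minimum count of 50 (1070) or counts divided by 4 (1188). Without 1 library the median of the 27 ran from -0.56 to -0.02, beside -0.01 to 0.18 over all genes. The median of all genes in that contrast was 0.16, but 0.34 with library totals and 0.03 with RLE factors. The causes were not tested.

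Over all genes, the count between numbers (461) was 956 with RLE, 266 with library totals, 2110 with the stricter filter, 1686 with DESeq2, 1278 with limma-voom, 2379 with counts divided by 4 and 388 to 4124 without 1 library. That of number 3 (575) was 945, 1006, 1030 and 940 with the stricter filter, DESeq2, counts divided by 4 and the trend removed, and 288 to 958 without 1 library. That of number 2 against 1 (9) was 21 with RLE, 1 with library totals, 1070 with the stricter filter, 619 with DESeq2, 263 with limma-voom, 1188 with counts divided by 4, 2 with number alone and 3 to 3965 without 1 library.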
